A study of Mus musculus with 12 samples.

Results

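The genes described here are brain-derived neurotrophic factor (Bdnf), its relative neurotrophin 3 (Ntf3), the neurotrophin receptors Ntrk2, Ntrk3 and Ngfr, and 4 genes known as late or synaptic activity genes in neurons: Homer1, Nptx2, Inhba and Vgf. They were followed in the hippocampus of epileptic mice after a systemic injection of LPS, the lipopolysaccharide that forms the outer layer of Gram-negative bacteria. The members were all transcript probes that carry 1 of these 9 gene names on the array. A probe was kept when in 1 group or more its signal exceeded background clearly on every array of the 3. By that rule 8 of the 9 genes had 16 probes, and all 16 were kept among 27682 kept probes of 41174 on the array. Vgf, which encodes a precursor of secreted peptides, had no probe by that name and was not analysed here. Where a gene has several probes they are numbered from the brightest to the dimmest.

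Neurotrophins are secreted as precursors that are cut to mature dimers. Mature BDNF binds the receptor tyrosine kinase TrkB (Ntrk2), neurotrophin 3 binds TrkC (Ntrk3), and p75 (Ngfr) binds all neurotrophins and their precursors without a kinase of its own. Neuronal activity and seizures are known to induce Bdnf, Homer1, Nptx2 and Inhba in the hippocampus, and TrkB signalling is a well-studied pathway in the development of epilepsy. Both Trk receptors also exist as truncated forms without the kinase; truncated TrkB is abundant in astrocytes.

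All mice were 12-week-old male C57BL/6N animals in which kainate, a drug that activates glutamate receptors, had been placed in the left dorsal hippocampus (50 nl at 20 mM). At 3 weeks, once seizures recurred, they received LPS from Salmonella enterica serotype abortus equi (100 µg/kg) or saline into the peritoneum. Whole hippocampus was taken 4 h or 24 h later, which gives 4 groups of 3 arrays: saline 4 h, LPS 4 h, saline 24 h and LPS 24 h. Every group carries the kainate injection, and mice without it were not analysed here. The labels do not say which hippocampus was used, left or right. Levels are log2 intensities minus the 75th percentile of the same array, so that 1 unit is a doubling and a negative level lies below that percentile. Differences come from 1 limma fit of the 4 group means, with a standard error (SE), and "called" means that the p, adjusted by Benjamini and Hochberg across the kept probes, was under 0.05. The labels count 3 hippocampal samples a group and do not say that each is another animal, so the p-values measure the spread between these samples.

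The probes whose results carry most of what follows are shown first, each 60 bases long and printed 5′ to 3′ as the array files give it. The first reads Bdnf (mm9 chr2:109564203-109564262, plus strand), the second Ntf3 (chr6:126051915-126051974, minus strand), the third Inhba (chr13:16118634-16118693, plus strand) and the last the Ntrk3 probe that the files assign to both reference transcripts of the gene (chr7:85595783-85595842, minus strand). No capitals are used because no stretch within a probe was singled out. The Bdnf and Ntf3 probes each hold 1 reading frame without a stop codon, and the Inhba and Ntrk3 probes 2.
Bdnf probe 1: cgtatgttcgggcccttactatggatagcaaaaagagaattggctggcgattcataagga
Ntf3: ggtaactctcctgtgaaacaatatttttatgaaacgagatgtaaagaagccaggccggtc
Inhba: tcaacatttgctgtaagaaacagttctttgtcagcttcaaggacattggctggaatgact
Ntrk3 probe 2: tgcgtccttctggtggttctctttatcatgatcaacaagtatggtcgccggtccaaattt

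Bdnf is a classic target of the activity-regulated factor CREB, whose site in DNA is the cyclic AMP response element, and its promoters are shown for that site. RefSeq (GRCm38.p6) promoter windows were found for 6 of the genes, 14 windows in all, 7 of them for Bdnf. In the 250 bases before the start, searched on both strands, the full element TGACGTCA was in 0 of the 14 windows and in 1.55% of all 32851 windows. Its core TGACG, which the full element contains, was in 2 of the 14, 1 of Bdnf and 1 of Homer1, and in 17.8% of all windows. The AP-1 site TGANTCA was in 1 of the 14 (a Bdnf window) and in 6.75% of all. The 120 bases before the start are shown for the windows with the core, in capitals where the core or its reverse complement lies. The Bdnf core starts 35 bases before the transcription start, and those of Homer1 start 56, 40 and 14 bases before it. These are letter matches, not measured binding.
Bdnf (chr2:109692316-109692435, plus strand): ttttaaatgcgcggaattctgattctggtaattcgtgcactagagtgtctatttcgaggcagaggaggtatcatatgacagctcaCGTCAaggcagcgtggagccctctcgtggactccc
Homer1 (chr13:93303637-93303756, plus strand): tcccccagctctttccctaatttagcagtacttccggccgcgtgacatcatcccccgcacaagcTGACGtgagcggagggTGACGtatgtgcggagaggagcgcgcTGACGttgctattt

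The saline arrays of 4 h stand apart from the other 9. Their 75th percentile of intensity was 385 ± 12.4 (SD, n = 3), against 702 ± 35.6 for LPS 4 h, 798 ± 61.2 for saline 24 h and 864 ± 124 for LPS 24 h, and 53.9% to 55.0% of their probes were well above background against 58.2% to 70.9% on the others. No spot was saturated on any array (0 spots). The arrays of 4 h and of 24 h were scanned on different days, so time after injection and scan day cannot be told apart. Summed levels of marker lists, on a linear scale relative to the 75th percentile, also differed between the groups, in more than 1 pattern. For 7 thalamic markers they were 14.5 to 15.1 in saline 4 h, 10.2 to 10.4 in LPS 4 h, 5.53 to 5.54 in saline 24 h and 7.92 to 8.0 in LPS 24 h. For 6 cortical markers they were 2.84 to 3.00, 4.36 to 4.43, 7.75 to 8.54 and 5.97 to 6.36, in that order. For 7 markers of dentate granule cells the order was again saline 4 h lowest (15.4 to 15.96), then LPS 4 h (18.3 to 19.2), LPS 24 h (20.7 to 22.4) and saline 24 h (23.5 to 24.2). Tdo2 and Cux2, markers of granule and upper cortical cells, were well above background on 0 of the 3 saline 4 h arrays and on 3 of 3 at 24 h in both groups. For 8 endothelial markers the sums were 50.2 to 51.0, 19.5 to 19.9, 26.1 to 27.7 and 32.4 to 35.1, in the order saline 4 h, LPS 4 h, saline 24 h, LPS 24 h, with 7 of the 8 called lower after LPS at 4 h and 7 higher at 24 h. For 8 microglial markers they were 145 to 149, 119 to 121, 52.4 to 52.8 and 92.0 to 92.2. At 4 h 5 of these markers were called lower and 2 higher. At 24 h 7 were called higher, and P2ry12 was called lower (-0.68, adjusted p = 5.81e-04). Of all kept probes 71.2% were called at 4 h and 42.9% at 24 h. The sums of 9 pyramidal cell markers were lower after LPS at both times (361 to 369, 278 to 286, 265 to 274 and 207 to 210). Singly, 5 of these 9 were called higher and 2 lower at 4 h, and 0 higher and 7 lower at 24 h. The sums of 9 interneuron markers were close at 4 h (71.9 to 72.6 and 72.8 to 74.7), and those of 7 choroid plexus markers were highest in LPS 24 h (43.5 to 44.6). The part of these shifts in the results below was not tested. In whole tissue, fewer cells of a type and less RNA per cell cannot be told apart.

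At 4 h, the neurotrophins, their Trk receptors, Nptx2 and Inhba were lower after LPS than after saline, and Homer1 went the other way on 3 of its 4 probes. Bdnf, Inhba and Ntf3 were lower by more than 2-fold on their brightest probes. Of the 16 probes, 14 were called, 11 lower and 3 higher, where 71.2% of all kept probes were called, 39.8% lower and 31.4% higher. The median of the 16 was -0.68 and that of all probes -0.09, which median scaling moved to -0.25. With that scaling 32.7% of all called probes were higher, against 44.1%. On 15 of the 16 probes the 3 LPS arrays and the 3 saline arrays did not overlap, against 74.7% of all probes.

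At 24 h, Bdnf, Nptx2, Inhba and Ntf3 were higher after LPS than after saline, Ngfr was lower, and no probe of Ntrk2 or Ntrk3 was called. Of the 16 probes, 8 were called, 6 higher and 2 lower, where 42.9% of all kept probes were called, 19.2% higher and 23.7% lower. The median of the 16 was 0.09 and that of all probes -0.02. With median scaling 30.5% of all called probes were higher, against 44.7%, and 6 members were called. The arrays of the groups did not overlap on 8 of the 16 probes and on 54.4% of all.

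The test of the difference between the responses, 24 h minus 4 h, called 15 of the 16 probes, 11 positive and 4 negative, where 65.8% of all kept probes were called, 36.9% positive and 29% negative. The largest positive values were those of the Bdnf probes, Inhba and Ntf3, and 3 of the 4 negative ones were Homer1 probes. Each response has its own saline group as its base, and those differed too. Between saline at 24 h and saline at 4 h, 14 of the 16 probes were called, 3 higher and 11 lower, where 79.4% of all kept probes were called, 38.8% higher and 40.6% lower. Of all called probes 48.8% were higher, and 27.2% with normexp background correction and the 75th percentile. The plot of levels shows all 12 arrays for every probe, and the plot of LPS against saline shows the differences at each time.

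**Figure D1:**
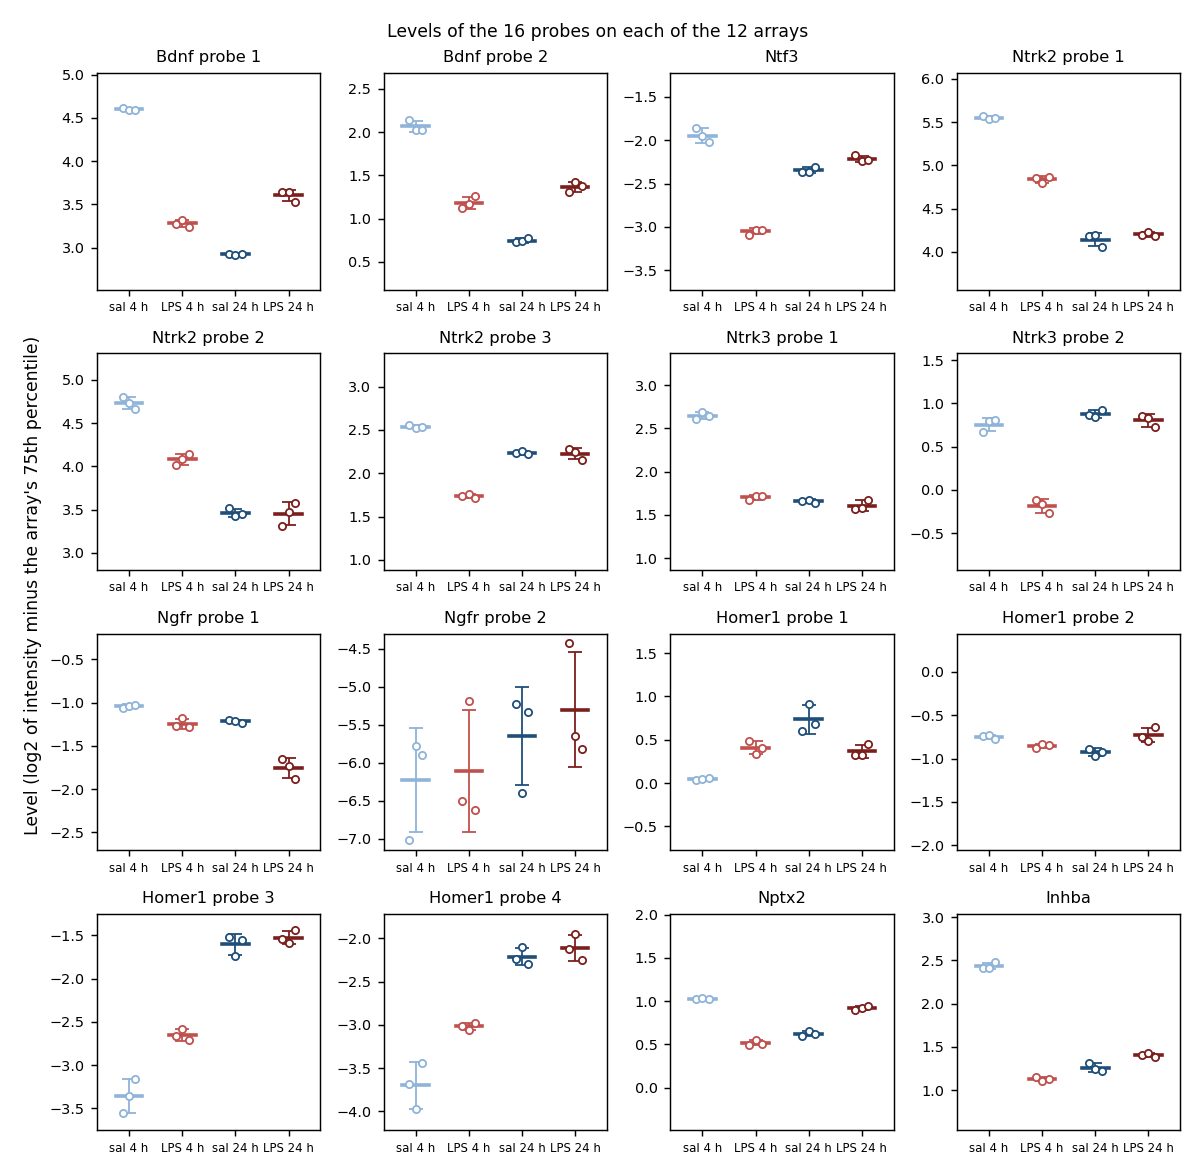
Level of each of the 16 probes (log2 intensity minus the array's 75th percentile) on each array, with open points for arrays, a bar for the group mean and error bars of 1 SD (n = 3). By group mean, all probes of Bdnf, Ntf3, Ntrk2, Nptx2 and Inhba, and probe 1 of Ntrk3 and of Ngfr, were highest in saline 4 h. Homer1 probes 1, 3 and 4 were lowest there, as was Ngfr probe 2, which no array of 4 h measured well above background.

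**Figure D2:**
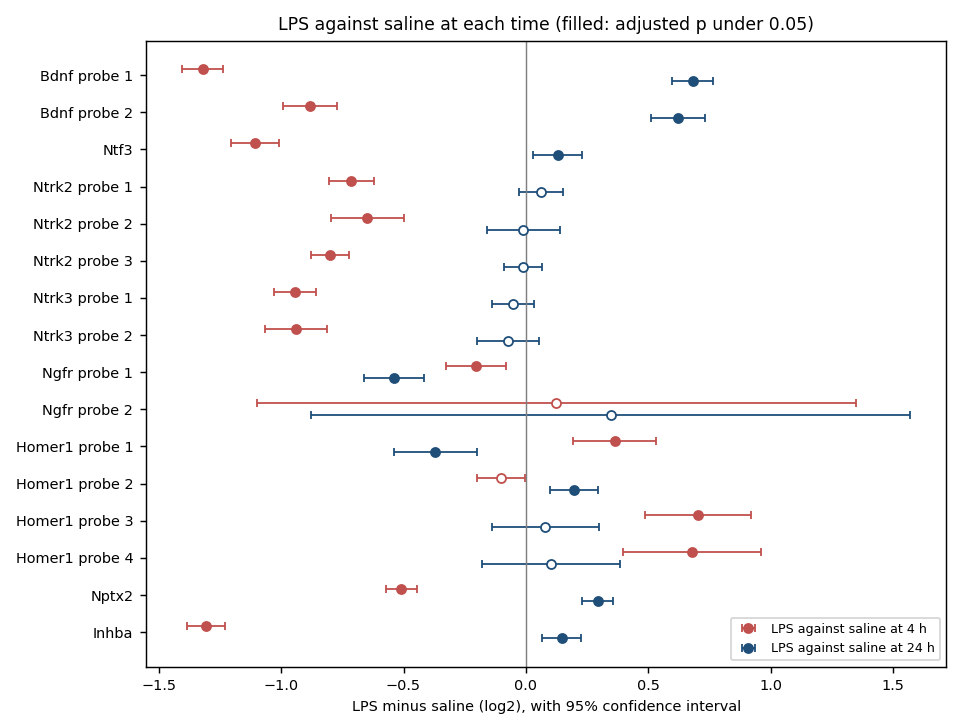
LPS minus saline (log2) at 4 h and at 24 h for each probe, with 95% confidence intervals of the limma fit; filled points have an adjusted p under 0.05. At 4 h 11 filled points lie below 0 and 3 above, and at 24 h 2 lie below and 6 above.

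Bdnf encodes the main neurotrophin of the adult hippocampus. Its probe 1, printed 10 times on the array, read 4.62, 4.59 and 4.60 on the saline arrays of 4 h and 3.28, 3.32 and 3.24 on the LPS arrays. The saline arrays of 24 h read 2.93, 2.91 and 2.93 and the LPS arrays 3.65, 3.64 and 3.53. The saline arrays were thus the highest of all at 4 h and the lowest of all at 24 h, and no group overlapped with another. The difference was -1.32 (SE 0.04, adjusted p = 1.64e-09), or 2.50-fold lower, at 4 h. At 24 h it was 0.68 (SE 0.04, adjusted p = 6.33e-07), or 1.60-fold higher, and the responses differed by 2.00 (adjusted p = 3.25e-09).

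Bdnf probe 2, further 3′ on the gene (chr2:109566470-109566529), read 2.14, 2.03 and 2.02 in saline 4 h, 1.12, 1.17 and 1.26 in LPS 4 h, 0.72, 0.74 and 0.78 in saline 24 h, and 1.31, 1.42 and 1.37 in LPS 24 h. The groups kept the order of probe 1 without overlap. Its differences were -0.88 (SE 0.05, adjusted p = 1.28e-07) at 4 h and 0.62 (SE 0.05, adjusted p = 8.25e-06) at 24 h. Within the slides, which hold 1 saline and 1 LPS array each, LPS minus saline on probe 1 ran from -1.38 to -1.28 at 4 h and from 0.60 to 0.73 at 24 h.

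The Bdnf directions depend on which saline group is the base. Saline at 24 h minus saline at 4 h was -1.68 (SE 0.04, adjusted p = 1.12e-10) on probe 1 and -1.32 on probe 2. Set against saline 24 h, the LPS arrays of 4 h were higher by 0.36 and 0.44, and set against saline 4 h, the LPS arrays of 24 h were lower, at -0.995 and -0.70. All 4 of these differences were called, and each has the opposite sign of the comparison within its own time.

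Ntf3, the ligand of TrkC, read -1.86, -1.95 and -2.03 in saline 4 h and -3.09, -3.03 and -3.03 in LPS 4 h, a gap wider than the spread of either group. The difference was -1.11 (SE 0.04, adjusted p = 1.44e-08), or 2.15-fold lower. At 24 h the saline arrays read -2.36, -2.36 and -2.31 and the LPS arrays -2.17, -2.24 and -2.23. Those groups do not overlap, but the difference of 0.13 (SE 0.04, adjusted p = 0.0382) is small. It lost its call in 18 alternatives that kept its direction, 8 of which leave out 1 array each, with adjusted p up to 0.824. Ntf3 in LPS 4 h was also below saline 24 h, at -0.71 (adjusted p = 3.09e-07).

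The counts in this gene list and those below stand beside the shares of all kept probes that were called. At 4 h these were 71.2% (39.8% lower and 31.4% higher), and at 24 h 42.9% (23.7% lower and 19.2% higher). Between the saline groups 79.4% were called. Other genes of ligand processing and sorting were given by a list of 12, of which 11 were measured. At 4 h 6 were lower and 2 higher, with a median of -0.44. Sorcs2 and Sort1, sorting receptors that also bind neurotrophin precursors, fell by 0.61 and 0.36. At 24 h 6 were higher and 1 lower, with a median of 0.15. Sort1 was the 1 that was lower (-0.57). Plg, the precursor of the protease plasmin, was well above background on no array outside LPS 24 h, where it was on all 3. It was at least 1.85-fold higher there than in saline 24 h. The filter kept it only through the group where it was high, so its place among the 6 higher is no independent result.

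Ntrk2 encodes TrkB. The files assign probe 3 to transcript variant 1, the full-length receptor with the kinase, and probe 2 to variant 2, the truncated receptor without it; probe 1 is next to probe 2 (chr13:59033742-59033800 and chr13:59033682-59033741) and is assigned to a cDNA clone. Probe 3 lies at chr13:59230936-59230995. All 3 probes were lower after LPS at 4 h, and none was called at 24 h, although probe 1 was with quantile normalization (0.13, adjusted p = 0.027).

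Probe 3, full-length Ntrk2, read 2.55, 2.53 and 2.54 in saline 4 h and 1.74, 1.76 and 1.72 in LPS 4 h. The difference was -0.80 (SE 0.03, adjusted p = 2.26e-08), or 1.74-fold lower. At 24 h the saline arrays read 2.23, 2.26 and 2.22 and the LPS arrays 2.28, 2.24 and 2.15, which overlap. The difference there was -0.01, with a 95% interval from -0.09 to 0.07. LPS 4 h was the lowest group, also against saline 24 h (-0.50, adjusted p = 6.27e-07).

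Probe 2, truncated Ntrk2, read 4.80, 4.73 and 4.67 in saline 4 h and 4.02, 4.09 and 4.15 in LPS 4 h. The difference was -0.65 (SE 0.07, adjusted p = 1.01e-05). At 24 h the saline arrays read 3.51, 3.43 and 3.45 and the LPS arrays 3.31, 3.47 and 3.57, with a difference of -0.01 and a 95% interval from -0.16 to 0.14. Here both 24 h groups were below both 4 h groups, so that LPS 4 h was above saline 24 h by 0.62 (adjusted p = 1.62e-05). The neighbouring probe 1 gave -0.71 (adjusted p = 1.45e-07) at 4 h, 0.06 (adjusted p = 0.261) at 24 h and 0.70 for LPS 4 h above saline 24 h.

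The probes of Ntrk2 therefore moved by similar amounts with LPS at 4 h and by unequal amounts between the times. From saline 4 h to saline 24 h the difference was -1.27 on probe 2 and -1.41 on probe 1, and -0.30 on probe 3 of the full-length form. On single arrays, probe 1 minus probe 3 was 3.01 to 3.02 in saline 4 h and 3.04 to 3.15 in LPS 4 h, against 1.84 to 1.95 in saline 24 h and 1.92 to 2.03 in LPS 24 h. With quantile normalization the saline difference of probe 3 was -0.01 and not called (adjusted p = 0.763), and in the deposited matrix it was -0.0052 (adjusted p = 0.963). Summed levels of 8 astrocyte markers were 458 to 478 in saline 4 h, 287 to 300 in LPS 4 h, 191 to 196 in saline 24 h and 209 to 212 in LPS 24 h. Of those 8 markers 4 were called lower and 3 higher at 4 h, and their part in the Ntrk2 values was not tested. Summed levels of 8 oligodendrocyte markers were 277 to 283, 234 to 240, 174 to 177 and 162 to 169, in the same group order. Of these 8 markers 5 were called lower and 2 higher after LPS at 4 h. At 24 h 2 were called lower, 0 higher and 6 were not called.

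Ntrk3 encodes TrkC. Probe 2, shown above and shared by both reference transcripts, read 0.67, 0.79 and 0.81 in saline 4 h and -0.12, -0.17 and -0.27 in LPS 4 h. The saline arrays of 24 h read 0.86, 0.85 and 0.92 and the LPS arrays 0.86, 0.83 and 0.72. Only the LPS arrays of 4 h were low on this probe. The difference was -0.94 (SE 0.06, adjusted p = 2.02e-07) at 4 h and -0.07, with a 95% interval from -0.20 to 0.05, at 24 h. Against saline 24 h, LPS 4 h was lower, at -1.06 (adjusted p = 9.04e-08), so its direction holds with either saline group.

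Probe 1 of Ntrk3, assigned to transcript variant 2 alone (chr7:85445908-85445967, minus strand), read 2.61, 2.69 and 2.64 in saline 4 h. It read 1.67, 1.72 and 1.72 in LPS 4 h, 1.66, 1.68 and 1.63 in saline 24 h and 1.56, 1.58 and 1.68 in LPS 24 h. Here the saline arrays of 4 h were high and the other 9 arrays lay within 1.56 to 1.72. The difference at 4 h, -0.94 (SE 0.04, adjusted p = 1.52e-08), was as large as on probe 2, but LPS 4 h did not differ from saline 24 h beyond the spread (0.05, adjusted p = 0.31). With median scaling it was called lower at 24 h (-0.13, adjusted p = 0.0211). Probe 1 minus probe 2 was 1.79 to 1.99 on the 6 arrays of 4 h and 0.71 to 0.96 on the 6 arrays of 24 h. The plot of differences between probes shows this gap by array. Such a gap shows unequal change of the probes and does not compare the abundance of the forms.

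**Figure D3:**
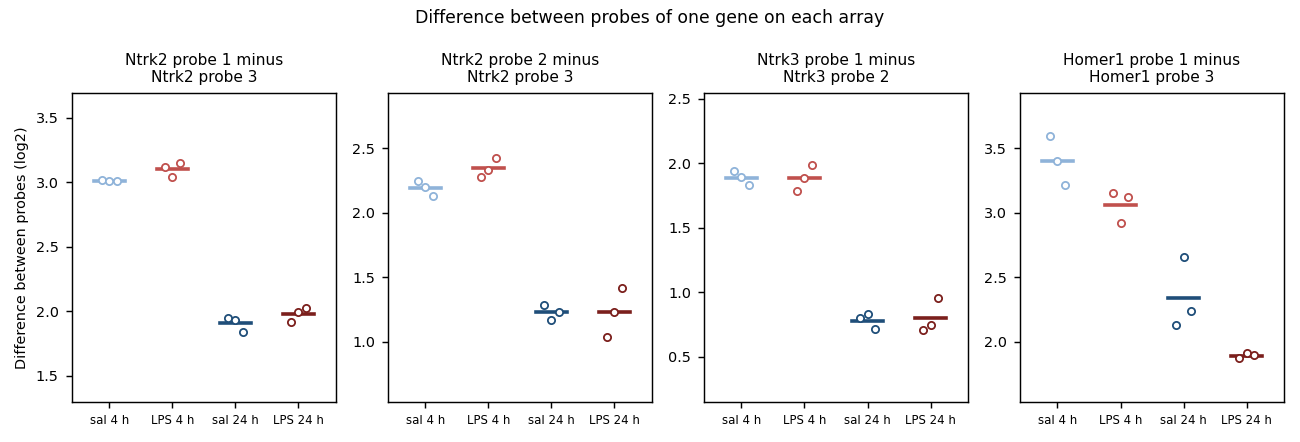
Difference in log2 level between 2 probes of 1 gene on each array (points) with the group mean (bar). For Ntrk2 and Ntrk3 the 6 arrays of 4 h lie above the 6 arrays of 24 h, and for Homer1 probe 1 minus probe 3 the means of the 4 groups descend from saline 4 h to LPS 24 h.

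Ngfr encodes p75, the receptor shared by the neurotrophins. Probe 1 (chr11:95430211-95430270, minus strand, printed 10 times) read -1.06, -1.04 and -1.02 in saline 4 h and -1.28, -1.18 and -1.28 in LPS 4 h. At 24 h it read -1.20, -1.21 and -1.24 in saline and -1.66, -1.73 and -1.88 in LPS, the lowest arrays of the 12. The difference was -0.20 (SE 0.05, adjusted p = 0.00694) at 4 h and -0.54 (SE 0.05, adjusted p = 4.07e-05) at 24 h. It was the 1 member gene called lower at both times on the same probe, and the responses differed by -0.34, 24 h minus 4 h (adjusted p = 0.0033). With the percentile taken over probes detected on all arrays the difference at 4 h, -0.09, was not called (adjusted p = 0.159). Probe 2 of Ngfr (chr11:95435537-95435596) was well above background on 0 of 3 arrays in each 4 h group, on 2 of 3 in saline 24 h and on 3 of 3 in LPS 24 h. Its values spanned -7.02 to -4.43, it was not called, and it gives no fold at 4 h. Of 5 listed markers of septal cholinergic neurons 3 were measured. At 4 h 1 was called lower and 0 higher, and at 24 h 3 were called lower (median -0.55). Of these, Lhx8 was well above background on 3 of 3 arrays in saline 24 h and on 0 of 3 in LPS 24 h. The filter kept Lhx8 only through saline 24 h, so its call as lower at 24 h is no independent result. The part of these markers in the Ngfr values was not tested.

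Among 31 listed genes of Trk and p75 signalling, 30 were measured. At 4 h 16 were lower and 11 higher, with a median of -0.14, where 71.2% of all kept probes were called. Pik3ca, a catalytic subunit of PI3 kinase, rose by 0.89, while Gab1, a docking protein, fell by 1.16. At 24 h 14 were lower and 4 higher, with a median of -0.13. Rps6ka1, a kinase downstream of ERK, rose by 0.67, whereas Creb1, which encodes CREB, fell by 0.31.

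Homer1 encodes a scaffold of the postsynaptic density with long forms and a short form, Homer1a, that activity induces. The files assign probe 1 to 2 long reference transcripts (chr13:94173265-94173324), probe 2 to another transcript (chr13:94129858-94129917) and probes 3 and 4 to the variant labelled S. Probe 4 lies at chr13:94075013-94075072, and probe 3 spans an intron (chr13:94075212-94111724). Probes 3 and 4 lie 5′ of probes 1 and 2 on the plus strand, and their assignment to variant S does not show that they read the short form alone. Which probes read the short form alone is not given in the sources used here.

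Probe 3 read -3.56, -3.35 and -3.16 in saline 4 h and -2.67, -2.58 and -2.71 in LPS 4 h. At 24 h it read -1.52, -1.74 and -1.55 in saline and -1.54, -1.59 and -1.44 in LPS. The arrays separate by treatment at 4 h and overlap at 24 h, where both groups are high. The difference was 0.70 (SE 0.10, adjusted p = 9.34e-05) at 4 h and 0.08, with a 95% interval from -0.14 to 0.30, at 24 h. Saline rose by 1.75 between the times (SE 0.10, adjusted p = 5.57e-08).

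Probe 4 gave the same order, with 0.68 (SE 0.13, adjusted p = 7.08e-04) at 4 h and 0.10 (adjusted p = 0.55) at 24 h, and 1.48 between the saline groups. Probe 1 read 0.04, 0.05 and 0.06 in saline 4 h, 0.48, 0.34 and 0.40 in LPS 4 h, 0.61, 0.92 and 0.68 in saline 24 h and 0.32, 0.32 and 0.45 in LPS 24 h. It was higher by 0.36 (adjusted p = 0.00164) at 4 h and lower at 24 h, at -0.37 (adjusted p = 0.00331). Against saline 24 h, the LPS arrays of 4 h were lower on probes 1, 3 and 4, at -0.33, -1.05 and -0.80, so the rise holds only against saline of the same time. With normexp background correction and the 75th percentile the rises of probes 3 and 4 at 4 h, 0.22 and 0.17, were not called (adjusted p = 0.178 and 0.418), nor was the saline difference of probe 4, 0.28 (adjusted p = 0.117).

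Probe 2 of Homer1 had the opposite signs of probe 1. It read -0.74, -0.73 and -0.77 in saline 4 h and -0.88, -0.83 and -0.85 in LPS 4 h, a difference of -0.10 (SE 0.04, adjusted p = 0.0567) that was not called although the arrays do not overlap. It was called in 9 alternatives, among them the deposited matrix (-0.13, adjusted p = 0.0306) and median scaling (-0.27, adjusted p = 7.30e-04). At 24 h it read -0.88, -0.98 and -0.92 in saline and -0.75, -0.80 and -0.64 in LPS, and was called higher by 0.20 (SE 0.04, adjusted p = 0.00485). That rise was not called with median scaling (0.12, adjusted p = 0.0694) or with normexp and the 75th percentile (0.18, adjusted p = 0.0756).

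The 12 listed partners of Homer at the postsynaptic density were all measured. At 4 h 8 were higher and 1 lower, with a median of 0.45. Dlg4, which encodes PSD-95, rose by 1.37, Grm5, a glutamate receptor bound by Homer, by 1.30 and the scaffold Shank3 by 0.81. At 24 h 9 were lower and 0 higher by the limma test, with a median of -0.28. Dlg4 fell by 0.49, Itpr1, a calcium channel of the endoplasmic reticulum, by 0.56 and Homer2 by 0.36. Between the saline groups 11 of the 12 were higher at 24 h and 0 lower, with a median of 0.84.

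Nptx2 encodes neuronal pentraxin 2, a secreted protein that clusters AMPA receptors at synapses. It read 1.03, 1.03 and 1.02 in saline 4 h and 0.50, 0.55 and 0.50 in LPS 4 h. At 24 h it read 0.60, 0.66 and 0.62 in saline and 0.90, 0.92 and 0.94 in LPS. Neither pair of groups overlaps, and the SD within a group was 0.03 or less. The differences were -0.51 (SE 0.03, adjusted p = 1.19e-07), or 1.42-fold lower, at 4 h and 0.29 (SE 0.03, adjusted p = 3.03e-05), or 1.22-fold higher, at 24 h. LPS 4 h was also below saline 24 h (-0.11, adjusted p = 0.0066), but LPS 24 h was below saline 4 h (-0.11, adjusted p = 0.00497).

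The list of pentraxins and AMPA receptor subunits holds 6 genes, of which the 4 subunits were measured. At 4 h 2 were higher and 0 lower, with a median of 0.11: Gria3 was higher by 0.34 and Gria4 by 0.23 (adjusted p = 0.0403), while Gria2 read -0.08 (adjusted p = 0.165). At 24 h 3 were lower and 0 higher, with a median of -0.31. Gria1 fell by 0.57, Gria3 by 0.35 and Gria2 by 0.27.

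Inhba encodes the beta-A subunit whose dimer is activin A, a ligand of the TGF-beta family known as a survival factor for neurons. It read 2.42, 2.41 and 2.48 in saline 4 h and 1.16, 1.10 and 1.13 in LPS 4 h. At 24 h it read 1.32, 1.24 and 1.22 in saline and 1.41, 1.43 and 1.39 in LPS. The saline arrays of 4 h were high and all others lay between 1.10 and 1.43. The difference was -1.31 (SE 0.03, adjusted p = 1.30e-09), or 2.47-fold lower, at 4 h and 0.15 (SE 0.03, adjusted p = 0.00759), or 1.11-fold higher, at 24 h. Saline at 24 h minus saline at 4 h was -1.17, and LPS 4 h minus saline 24 h was -0.13 (adjusted p = 0.00654). The rise at 24 h was not called with median scaling (0.07, adjusted p = 0.149) or with normexp and the 75th percentile (0.15, adjusted p = 0.234).

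Of 16 listed genes of activin and inhibin signalling, 15 were measured. At 4 h 6 were higher and 4 lower, with a median of -0.03: Smad4, the shared transducer, rose by 0.83, Smad2 fell by 0.57 and Acvr1c, a type I receptor, by 0.80. At 24 h 8 were lower and 0 higher, with a median of -0.16. Inhbb, the other beta subunit, fell by 0.46, Fst, which encodes the activin antagonist follistatin, by 0.78 and Smad4 by 0.16.

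The plot of LPS arrays against either saline group gathers the dependence on the control. At 4 h, 5 of the 11 probes called lower were called lower against saline 24 h too, as were 32.5% of all probes called lower at 4 h: Ntf3, Ntrk2 probe 3, Ntrk3 probe 2, Nptx2 and Inhba. At 24 h, Ngfr probe 1 was the 1 called probe that was called in the same direction against saline 4 h (-0.72, adjusted p = 6.89e-07), 1 of 8, against 48.5% of all probes called at 24 h. The comparisons with either saline group share their LPS arrays. Of the 16 probes, 12 were called for LPS 4 h against saline 24 h (71% of all) and 13 for LPS 24 h against saline 4 h (79.9% of all).

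**Figure D4:**
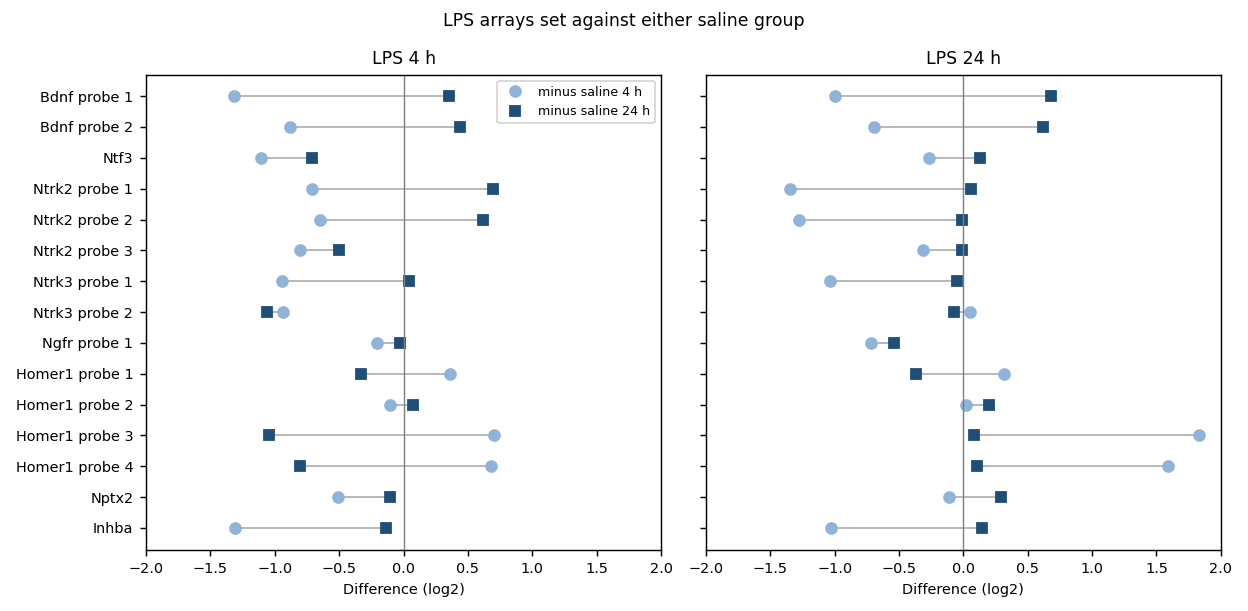
Difference (log2) of the LPS group of 4 h (left) and of 24 h (right) from saline 4 h (circles) and from saline 24 h (squares), for the 15 probes well above background in the groups compared. For Bdnf the circle and the square lie on opposite sides of 0 in both panels, and for Ntf3 and Ntrk3 probe 2 both lie below 0 in the left panel.

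The order of the 4 groups sorts the members. Bdnf probe 1 ran saline 4 h, LPS 24 h, LPS 4 h, saline 24 h from high to low, and every neighbouring pair was called different, the closest being LPS 24 h over LPS 4 h by 0.33 (adjusted p = 2.48e-05). For Ntrk3 probe 2 saline 24 h, LPS 24 h and saline 4 h came first without a called difference among them, and LPS 4 h came last, with 0.99 between it and LPS 24 h. Saline 24 h minus saline 4 h, 0.12 there, was called in 5 alternatives, at up to 0.30 (adjusted p = 7.43e-04) with the percentile over probes detected on all arrays. For Ngfr probe 1 LPS 4 h and saline 24 h were indistinguishable (-0.03, adjusted p = 0.672) between saline 4 h above and LPS 24 h below. For Homer1 probe 1 LPS 4 h and LPS 24 h were indistinguishable (-0.04 for 24 h minus 4 h, adjusted p = 0.621).

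Other late, dendritic and immediate early activity genes give the setting of these members. Of 20 listed late and dendritic genes 18 were measured. At 4 h 9 were higher and 9 lower, with a median of -0.11, where 71.2% of all kept probes were called. Tiparp, a mono-ADP-ribosyltransferase, rose by 1.76, Rgs2, a regulator of G protein signalling, fell by 1.53, and Sik1, a salt-inducible kinase not well above background in saline 4 h, was at least 1.86-fold higher (adjusted p = 8.42e-10). At 24 h 9 were higher and 4 lower, with a median of 0.16: Dusp1, a MAP kinase phosphatase, rose by 0.64 and Rgs2 by 0.51, and Tac1, the precursor of substance P, fell by 1.40.

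Of 16 listed immediate early genes 15 were measured. At 4 h 7 were higher and 7 lower, with a median of 0.10, where 71.2% of all kept probes were called. Among them the transcription factor genes Egr4 and Nr4a1 fell by 1.5 and 0.68, and Jun rose by 0.68. At 24 h 8 were higher and 2 lower, with a median of 0.21: Npas4, an activity-dependent factor known to act on Bdnf, rose by 1.59, Fos by 0.72 and Atf3 by 0.76. Between the saline groups 11 of the 15 were lower at 24 h, with a median of -1.64, and 3 were higher.

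Granins and other genes of dense core vesicles, in which neuropeptides and BDNF are stored, were listed with 11 genes, all measured. At 4 h 8 were lower and 2 higher, with a median of -0.22. Scg2 and Chgb, both granins, fell by 1.69 and 0.92, and the peptide gene Sst rose by 1.49. At 24 h 7 were lower and 2 higher, with a median of -0.21. Cadps2, a factor for vesicle release, fell by 0.68, Sst by 0.34 and Chgb by 0.25. The plot of calls by list shows all 8 lists.

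**Figure D5:**
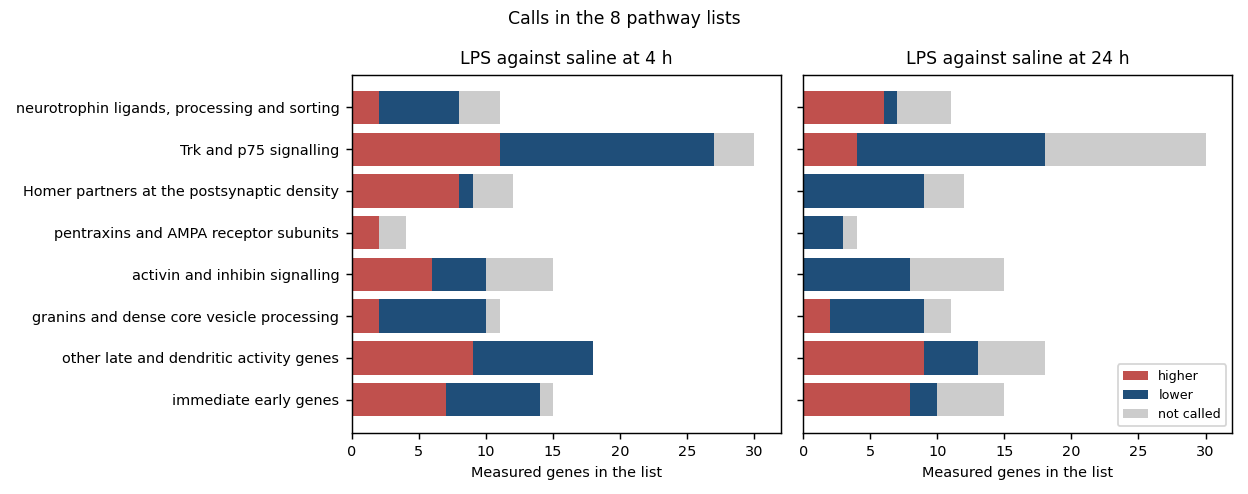
Number of measured genes called higher, called lower or not called in each of the 8 pathway lists, for LPS against saline at 4 h (left) and at 24 h (right). The list of Homer partners has 8 genes higher at 4 h and 9 lower at 24 h. The list of ligand processing has 6 lower at 4 h and 6 higher at 24 h, among them Plg, which the filter kept only through LPS 24 h. Of all kept probes 71.2% were called at 4 h and 42.9% at 24 h.

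The probes most like each member over the 12 arrays were found by the root mean square distance between log2 profiles, each centred on its own mean. For Bdnf probe 1 they were Rdh5 (0.07), Susd3 (0.09) and Cd79b (0.10). Ntf3 was closest to Kcnj9 (0.07), Myadml2 (0.08) and Sltm (0.08). Probe 1 of Ntrk2 was closest to Rps28 (0.04) and Aifm2 (0.04), and probe 1 of Ntrk3 to Pfdn1 (0.04), Hars (0.05) and Ccne1 (0.05). Nearest to Ngfr probe 1 were Chn1 (0.06), Rasgef1a (0.06) and Ccng2 (0.07), and nearest to Homer1 probe 1 were Unc5b (0.07), Phf20 (0.07) and Ppp1r14c (0.07). Nptx2 lay closest to Ddx39a (0.05), Fam219a (0.05) and P4hb (0.05), and Inhba to Pyurf (0.06), Cyb5r1 (0.07) and Shisa9 (0.08). Among the members, the pair of probes from different genes with the smallest distance was Ntrk2 probe 3 and Ntf3 (0.142). Next came Nptx2 and Homer1 probe 2 (0.155), Ntrk2 probe 3 and Nptx2 (0.161), and Inhba and Ntrk3 probe 1 (0.162). These distances describe likeness of pattern over 12 arrays that share groups and scan days.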

How the data were processed

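Whole hippocampus of mice was measured on 12 one-colour Agilent arrays, 3 in each of 4 groups. The deposited files give a fluorescence intensity per spot; background was subtracted in Feature Extraction 10.7.3.1 and probes were placed on mm9, per the file headers, while the submitters' processing notes name version 9.1. The deposited series matrix holds log2 values with column medians of 6.98 to 6.99; they lie within 0.126 of normexp (offset 50) and quantile values of each probe's first spot, and how the authors made them is not given in the sources used here. They served as an alternative.

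The processed intensity was taken as log2, 926 outlier spots of 43379 were left out, repeated spots were averaged and each array's 75th percentile was subtracted. The 12 arrays entered 1 fit of group means (limma 3.58.1, R 4.3.3; two-sided, Benjamini-Hochberg over 27682 probes), tested on simulated data first. Pathway and marker genes are represented by their brightest kept probe. Where a probe was well above background on no array of 1 group, "at least" sets the other group's mean against the lowest signal well above background on each dim array, or the probe's own where higher. The named pathway genes are, per list and LPS comparison, up to 3 with the smallest adjusted p among those whose arrays do not overlap; some genes that the naming rules select are not reported here. Exon and untranslated-region annotation for mm9 was not used here. Alternatives changed the scaling, the background correction, the filter, the arrays in the fit, the saline group or the probes of a gene, used the deposited matrix, or added blocks by replicate number and slide; others set a stricter threshold or left out each array. The members and lists were chosen with earlier results of these data known. Arrays carry no read depth; 3 arrays a group limit the precision, with a median SD between arrays of 0.05 to 0.07 (log2).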

Additional observations from a re-analysis of the deposited data

Results flagged for a closer look

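The LPS response differed between the times on 15 of the 16 probes, by the limma test of the response at 24 h minus that at 4 h (log2, adjusted over all kept probes, of which 65.8% were called). For the ligands the values were 2.00 on Bdnf probe 1 (adjusted p = 3.25e-09), 1.51 on Bdnf probe 2 (adjusted p = 6.65e-08) and 1.24 for Ntf3 (adjusted p = 1.16e-07). For the receptors they were 0.77, 0.64 and 0.79 on probes 1, 2 and 3 of Ntrk2 (adjusted p = 1.50e-06, 1.87e-04 and 4.31e-07), 0.89 and 0.87 on probes 1 and 2 of Ntrk3 (adjusted p = 3.78e-07 and 6.58e-06), and -0.34 on Ngfr probe 1 (adjusted p = 0.0033). In the deposited matrix Ntrk2 probe 2 and Ngfr probe 1 were at 0.25 and -0.21 and not called (adjusted p = 0.0897 and 0.062). Homer1 gave -0.73, -0.62 and -0.58 on probes 1, 3 and 4 (adjusted p = 1.84e-04, 0.00261 and 0.0159) and 0.30 on probe 2 (adjusted p = 0.00167); probes 3 and 4 were at -0.14 and -0.09, not called (adjusted p = 0.613 and 0.806), with normexp and the 75th percentile. Nptx2 gave 0.80 (adjusted p = 1.02e-07) and Inhba 1.45 (adjusted p = 1.09e-08). Each value sets 3 LPS arrays against 3 saline arrays at both times, and the times were scanned on different days.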

How the results depend on the processing

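Over all member values and alternatives, 1507 kept direction and call, 37 kept direction and lost the call, 21 kept direction and gained one, and 18 changed direction with a call on either side. In 29 others the sign turned and neither value was called. With saline 24 h as the base, LPS 4 h read 0.36 and 0.44 for Bdnf, 0.70 and 0.62 for Ntrk2 probes 1 and 2, 0.045 for Ntrk3 probe 1, and -0.33, -1.05 and -0.80 for Homer1 probes 1, 3 and 4. With saline 4 h as the base, LPS 24 h read -0.995 and -0.70 for Bdnf, -0.27 for Ntf3, -1.35 for Ntrk2 probe 1, 0.32 for Homer1 probe 1, -0.11 for Nptx2 and -1.03 for Inhba, and 22119 probes and 13 members were called. Between the saline groups, Ngfr probe 2 read -0.66 with normexp and the 75th percentile, and Ngfr probe 1 and Homer1 probe 2 read 0.0048 and 0.0030 with the percentile over probes detected on all arrays. With normexp and the 75th percentile, 12074 probes were called at 4 h (against 19701), 4438 at 24 h (against 11873), 10060 for the difference between the responses (against 18224) and 5 members at 24 h (against 8); the cause was not tested. That difference was then not called for Homer1 probes 3 and 4 (-0.14 and -0.09, adjusted p = 0.613 and 0.806), and in the deposited matrix not for Ngfr probe 1 (-0.21, adjusted p = 0.062) and Ntrk2 probe 2 (0.25, adjusted p = 0.0897). Without the filter 34% of the calls at 4 h and 34.6% of those between the saline groups were higher.

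Leaving out each array gave 18708 to 19874 calls and 14 to 15 members at 4 h, 10400 to 12079 and 7 to 8 at 24 h, 17481 to 18215 and 15 for the difference between the responses, and 21165 to 22098 and 14 between the saline groups. The deviations of same-numbered arrays had correlations of 0.08, 0.17 and -0.15 at 4 h, where those of other pairs ran from -0.30 to 0.25. At 24 h they were 0.03, 0.08 and 0.07, where those of other pairs ran from -0.06 to 0.01. Same-numbered arrays of 24 h also share a slide, so number and slide cannot be told apart there. Correlations this few and small cannot decide whether the numbers pair samples. The replicate block gave 19424, 11241, 17874 and 21833 calls in the same order, and 14, 7, 15 and 14 members; Ntf3 at 24 h was the one lost (adjusted p = 0.0662). The slide as a block gave 19652, 11596 and 18172 and could not be fitted between the saline groups. As a random block, chosen after seeing the data, it gave 20279, 12887, 18877 and 21967. With 1 probe a gene no count of member probes was made. Signal over background limits Ngfr probe 2, which no array of 4 h measured well above background.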
